A study of Saccharomyces cerevisiae with 8 samples.

Results

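The transcript levels of 10 zinc genes of the budding yeast Saccharomyces cerevisiae were followed across 8 RNA-seq libraries. The genes were chosen by name and function, with the counts of these same libraries already in view, so their values are given as a description and carry no p-value. They are the 10 rows for ZRT1 (YGL255W), ZRT2 (YLR130C), FET4 (YMR319C), ZRT3 (YKL175W), ZRC1 (YMR243C), ZAP1 (YJL056C), ZPS1 (YOL154W), ADH4 (YGL256W), IZH1 (YDR492W) and IZH2 (YOL002C), out of 7126 rows in the count table. All 10 passed the filter on low counts, which kept 6174 rows for testing.

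All libraries came from BY4741, a laboratory strain of mating type a, grown to mid-exponential phase in synthetic medium lacking uracil. The 4 groups of 2 libraries were the mutation strain HP, the control strain HP, the mutation strain nHP and the control strain nHP. The submitters label the mutation strain as having improved tolerance to oxidation and do not name the mutated gene. HP and nHP are used here as the sample titles give them. The study description speaks of cultures with or without hydrogen peroxide, whereas the media label assigns peroxide to all 4 control strain libraries and to no mutation strain library. If that label were right, strain and peroxide could not be told apart. The labels do not say whether the 2 libraries of a group came from separate cultures, so the p-values below measure the spread between these libraries.

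Yeast takes up zinc mainly through the high-affinity plasma membrane transporter Zrt1, with the low-affinity transporters Zrt2 and Fet4 beside it. Surplus zinc is moved into the vacuole by Zrc1 and released again by Zrt3. Zap1 is the transcription factor that senses zinc: when the metal is scarce it binds zinc-responsive elements in promoters and activates uptake genes, vacuolar genes and its own gene.

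The promoter sequences are shown first because Zap1 is known to act on its targets through them. The consensus ACCTTNAAGGT, a palindrome that reads the same on both strands, was searched in the 500 bases before each start codon of the R64 reference genome, with sequence and annotation from RefSeq. An exact copy stood in 9 of 6002 protein-coding promoters (0.15%), and a copy with at most 1 mismatch in 118 (1.97%). Among the 10 zinc genes, ZRT1 alone had an exact copy, and 7 had a copy with at most 1 mismatch. These are the matches with at most 1 mismatch, written 5′ to 3′ in the direction of the gene, with the 11 bases of the match in capitals. The first line is the exact copy.
ZRT1, chrVII:20765-20793, plus strand: acatatttgACCTTGAAGGTcatggaaag
ZRT1, chrVII:20650-20678, plus strand: accaaagatACCCTCAAGGTtctcatctg
ZRT2, chrXII:404354-404382, minus strand: agggacataACCCTAAAGGTtatatgcga
ZRT2, chrXII:404305-404333, minus strand: tttttcacaACCTTTAGGGTacattgccc
ZRT3, chrXI:118629-118657, plus strand: gtgacaacaACCTTAAGGGTaatggactt
ZRC1, chrXIII:756321-756349, minus strand: cttcagatgGCCTTGAAGGTgaggaatga
ZAP1, chrX:333198-333226, minus strand: cagtcatctACCCTAAAGGTcatgatgaa
ZPS1, chrXV:34320-34348, plus strand: ttataattgACCTTCAGGGTtaggaccct
ZPS1, chrXV:34335-34363, plus strand: agggttaggACCCTGAAGGTtttttgtag
IZH1, chrIV:1434498-1434526, plus strand: tatcatgcaACCTTTAGGGTccaagccct

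The exact copy of ZRT1 covers bases -204 to -194 before its start codon. ZRT1 and ZRT2 each had 2 matches with at most 1 mismatch, and so did ZPS1, where the pair lies close together at -329 and -314. ADH4, FET4 and IZH2 had none at that stringency. FET4 had 1 match with 2 mismatches, which 1159 promoters (19.3%) also reach. A match describes letters in this window and says nothing of whether Zap1 binds there.

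**Figure D1:**
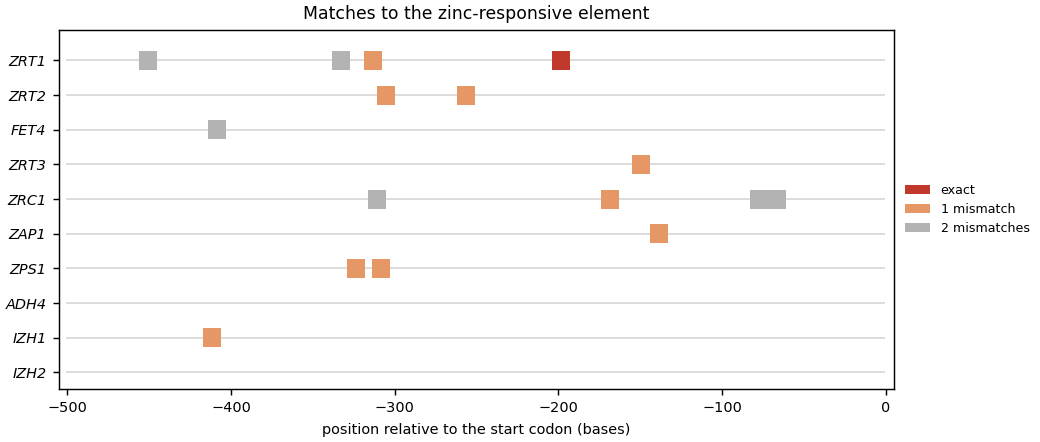
Matches to the zinc-responsive element in the 500 bases before the start codon of each zinc gene (x axis: position relative to the start codon in bases). Each box is 1 match of 11 bases, coloured by its mismatches to the consensus. ZRT1 carries the exact match at -204, and ADH4 and IZH2 carry no box.

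Each library held 8296523 to 11202362 counts, and 3 counts, the limit that a count of 0 allows, correspond to 0.266 to 0.374 CPM (counts scaled to TMM library sizes). The biological coefficient of variation was 8.07%, and replicates correlated at 0.991 to 0.996 across genes on the log2 scale. As a check of the strain labels, LEU2 and MET17, which BY4741 lacks, had 0 counts in all libraries. HIS3, of which BY4741 carries a partly deleted allele, stood at 49.97 to 73.7 CPM in the mutation strain and at 64.7 to 84.9 CPM in the control strain. BY4741 also lacks URA3, which growth without uracil requires. It stood at 3456 and 3118 CPM in the mutation strain HP and at 3676 and 3172 CPM in the control strain HP. In nHP it stood at 1842 and 1801 CPM in the mutation strain and at 3939 and 4205 CPM in the control strain. Its strain difference was -1.16 ± 0.13 in nHP (log2, edgeR adjusted p = 0.000142) and -0.06 ± 0.13 in HP (edgeR adjusted p = 0.749). TAF10, a subunit of TFIID and SAGA, stood at 11640 to 16690 CPM in the mutation strain and at 87.0 to 111.8 CPM in the control strain. The summed CPM of 6 markers of a cells was 49.95 to 80.9 in the mutation strain and 2010 to 2876 in the control strain, although both are labelled as the same strain of mating type a, and 4 markers of alpha cells summed to 45.9 to 68.7 and 57.4 to 69.6 CPM. The differences in TAF10 and in the markers of a cells run with the strain comparisons below, and that in URA3 with the one in nHP. Their part in the zinc genes' values was not tested. Within the mutation strain the markers of a cells summed to 78.6 to 80.9 CPM in HP and 49.95 to 54.3 CPM in nHP. In bulk RNA, a change in the make-up of the culture and a change in RNA per cell cannot be told apart.

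ZRT1, the high-affinity zinc transporter, had the largest span of levels among the 10 genes. It measured 146 and 119 CPM in the mutation strain HP, 128 and 153 CPM in the control strain HP, 419 and 448 CPM in the mutation strain nHP, and 1173 and 1403 CPM in the control strain nHP. The HP libraries of both strains overlapped at the low end, the mutation strain nHP libraries stood above them, and the control strain nHP libraries stood above all others. Its log2 fold change was -3.19 ± 0.14 (SE) between HP and nHP in the control strain, which is 9.15-fold lower and the third largest difference in size among the 6174 genes of that comparison. In the mutation strain the same difference was -1.71 ± 0.14, or 3.27-fold lower. Between strains, ZRT1 was 2.97-fold lower in the mutation strain nHP than in the control strain nHP (log2 -1.57 ± 0.13). In HP the strain difference was -0.09 ± 0.14, and its sign turned to 0.07 without the second control strain HP library and to 0.05 without the second mutation strain HP library.

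The share of ZRT1 in the summed level of the 10 genes differed between groups. The 10 genes together made 1851 and 1861 CPM in the mutation strain HP, 1757 and 1979 CPM in the control strain HP, 2152 and 2174 CPM in the mutation strain nHP, and 3348 and 3678 CPM in the control strain nHP. ZRT1 was 6.39% to 7.87% of that sum in the HP libraries of both strains, against 19.5% and 20.6% in the mutation strain nHP and 35.0% and 38.1% in the control strain nHP.

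ZRT2, the low-affinity zinc transporter, stayed within a narrow range. It measured 161 and 149 CPM in the mutation strain HP, 173 and 186 CPM in the control strain HP, 210.4 and 212 CPM in the mutation strain nHP, and 171 and 177 CPM in the control strain nHP. The mutation strain nHP libraries were the highest and the mutation strain HP libraries the lowest. The log2 difference between HP and nHP was -0.45 ± 0.08 in the mutation strain and 0.04 ± 0.08 in the control strain, where the libraries overlapped. The strain difference was -0.21 ± 0.08 in HP and 0.28 ± 0.08 in nHP, the last falling to 0.15 on the deposited RPKM values, which carry no normalization beyond the library total.

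FET4 encodes a low-affinity iron transporter that also carries zinc and copper. It measured 358 and 382 CPM in the mutation strain HP, 309 and 315 CPM in the control strain HP, 224 and 165 CPM in the mutation strain nHP, and 480.3 and 481 CPM in the control strain nHP. The order of HP and nHP was opposite in the 2 strains: FET4 was 1.90-fold higher in HP in the mutation strain (log2 0.93 ± 0.13) and 1.54-fold lower in HP in the control strain (log2 -0.62 ± 0.12). In nHP it was 2.47-fold lower in the mutation strain than in the control strain (log2 -1.31 ± 0.13), and in HP the strain difference was 0.24 ± 0.12.

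The vacuolar transporters differed by at most 0.45 on the log2 scale in any comparison of groups. ZRT3, which releases zinc from the vacuole, measured 189.5 and 176 CPM in the mutation strain HP, 161 and 162 CPM in the control strain HP, 204 and 217.5 CPM in the mutation strain nHP, and 215 and 227 CPM in the control strain nHP. Its largest difference was -0.45 ± 0.08 on the log2 scale, between HP and nHP in the control strain, where the groups did not overlap. That value ranked 107 from the lowest among the 6174 genes of that comparison. ZRC1, which loads zinc into the vacuole, measured 177 and 195.5 CPM in the mutation strain HP, 196 and 218 CPM in the control strain HP, 215.5 and 235 CPM in the mutation strain nHP, and 213 and 219 CPM in the control strain nHP. Its largest log2 difference was -0.27 ± 0.09, between HP and nHP in the mutation strain, and it fell to -0.15 without normalization beyond the library total. ZRC1 resembles COT1, a vacuolar transporter of cobalt and zinc, with 71.8% identity over a stretch of 358 bases. Whether any reads were shared between the genes was not tested.

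**Figure D2:**
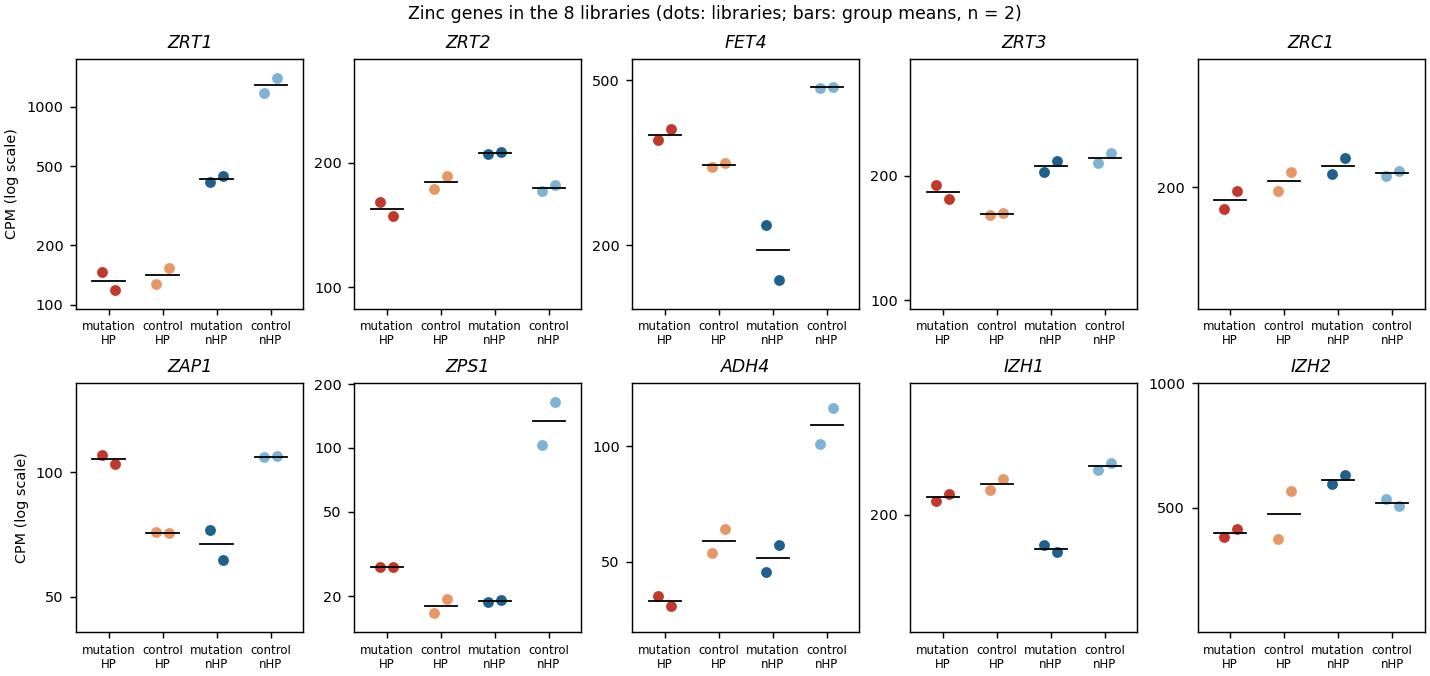
CPM (y axis, log scale) of the 10 zinc genes in each of the 8 libraries (dots), with the mean of 2 libraries per group as a bar. ZRT1, ZPS1 and ADH4 are highest in the control strain nHP libraries, while ZRT2, ZRT3 and ZRC1 stay between 149 and 235 CPM in every library.

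ZAP1, the zinc-sensing activator that also binds its own promoter, crossed over between strains. It measured 110.2 and 104 CPM in the mutation strain HP, 71.5 and 71.1 CPM in the control strain HP, 72.5 and 61.2 CPM in the mutation strain nHP, and 108.9 and 109.0 CPM in the control strain nHP. The mutation strain HP and control strain nHP libraries were the high ones and the other 4 the low ones, with a gap between them. The log2 difference between HP and nHP was 0.68 ± 0.10 in the mutation strain and -0.61 ± 0.09 in the control strain. The strain difference was 0.59 ± 0.09 in HP and -0.70 ± 0.10 in nHP.

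ZPS1 encodes a secreted protein related to fungal zinc-binding surface proteins. It measured 27.4 and 27.5 CPM in the mutation strain HP, 16.7 and 19.4 CPM in the control strain HP, 18.8 and 19.2 CPM in the mutation strain nHP, and 103.5 and 165 CPM in the control strain nHP. Both control strain nHP libraries stood apart from all others, and they also differed most from each other. ZPS1 was 7.06-fold lower in the mutation strain than in the control strain in nHP (log2 -2.82 ± 0.20), and 7.39-fold lower in HP than in nHP in the control strain (log2 -2.89 ± 0.19, the fourth largest in size). In the mutation strain the difference between HP and nHP was 0.53 ± 0.21, in the opposite direction. Leaving out 1 control strain nHP library at a time gave -2.43 to -3.11 for the strain difference in nHP.

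ADH4, an alcohol dehydrogenase known to be induced when zinc is scarce, measured 40.6 and 38.2 CPM in the mutation strain HP, 52.55 and 60.95 CPM in the control strain HP, 46.96 and 55.3 CPM in the mutation strain nHP, and 102 and 126 CPM in the control strain nHP. Only the control strain nHP libraries passed 100 CPM. ADH4 was lower in the mutation strain in nHP (log2 -1.15 ± 0.13, 2.22-fold) and in HP (-0.53 ± 0.13). It was also lower in HP than in nHP in the control strain (-0.999 ± 0.12) and in the mutation strain (-0.38 ± 0.13, or -0.24 without the second mutation strain nHP library). ADH4 lies beside ZRT1 on chromosome VII, 4670 bases away, with a noncoding RNA gene between them that was not tested.

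IZH1 and IZH2 are membrane proteins of the progestin and adipoQ receptor family that are tied to zinc balance. IZH1 measured 216 and 225 CPM in the mutation strain HP, 229.6 and 244 CPM in the control strain HP, 169 and 162.5 CPM in the mutation strain nHP, and 257 and 267 CPM in the control strain nHP. The mutation strain nHP libraries were the lowest, with a strain difference in nHP of -0.66 ± 0.08 and a difference between HP and nHP in the mutation strain of 0.41 ± 0.08. IZH2 measured 425.5 and 445 CPM in the mutation strain HP, 419.5 and 549 CPM in the control strain HP, 571 and 599 CPM in the mutation strain nHP, and 524.5 and 505 CPM in the control strain nHP. The 2 control strain HP libraries of IZH2 spanned most of this range. Its largest log2 difference was -0.43 ± 0.12, between HP and nHP in the mutation strain.

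**Figure D3:**
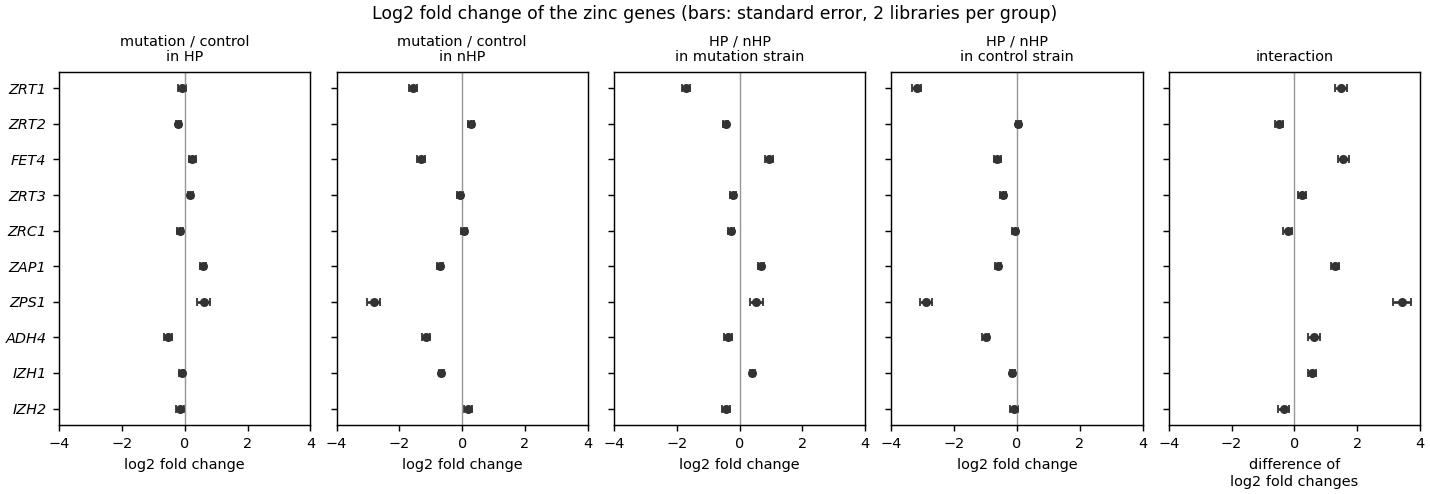
Log2 fold changes of the 10 zinc genes (points) with their standard errors (bars, 2 libraries per group) in the 4 comparisons, and their interaction (log2 difference of HP over nHP for the mutation strain, less the one for the control strain). ZRT1 and ZPS1 lie far to the left in the panel of the strain difference in nHP, at -1.57 and -2.82, and in the panel of HP over nHP for the control strain, at -3.19 and -2.89.

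A gene was called where edgeR's quasi-likelihood test gave a Benjamini-Hochberg adjusted p below 0.05 over all 6174 genes. Because the zinc genes were picked with these counts known, nothing is read from how many of them were called, and the background is given beside each count. For the strain difference in nHP, 1 zinc gene was called higher and 6 lower in the mutation strain, beside 21.3% of all genes called (11.4% higher and 9.91% lower). Their median log2 difference was -0.68, against -0.02 over all genes tested. In HP, 1 was called higher and 1 lower, beside 28.7% of all genes (14.7% higher and 14% lower), with medians of -0.10 and -0.05. That count of 2 was 3 under each alternative that kept all libraries of the comparison. With RLE size factors, 986 genes were called higher and 722 lower of 6174. With only the 4 libraries compared, 700 were called higher and 342 lower of 6147. The count of zinc genes dropped without either mutation strain HP library or without the second control strain HP library.

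For HP against nHP in the control strain, 6 zinc genes were called, all lower in HP, beside 1.96% of all genes (1.44% higher and 0.518% lower). The median was -0.53, against 0.00 over all genes, and 9 of the 10 values lay below 0, with ZRT2 the exception. The count of 6 was 5 with limma on the RPKM values, where 63 genes were called higher and 21 lower of 6174. It was also 5 with only the 4 libraries compared, where 54 were called higher and 18 lower of 6125. Without either control strain nHP library, fewer than 6 zinc genes were called. In the mutation strain, 3 were called higher in HP and 5 lower, beside 49.3% of all genes (25.2% higher and 24.1% lower), with medians of -0.24 and 0.02. That count of 8 was 6 with limma on the RPKM values, where 2061 genes were called higher and 988 lower of 6174. It was 10 with the replicate block, where 1692 were called higher and 1629 lower of 6174. The count of zinc genes dropped without the first mutation strain HP library or without the second mutation strain nHP library. The interaction was called for 7 zinc genes, 6 positive and 1 negative, beside 29.2% of all genes (14.6% in each direction). The 4 comparisons share libraries in pairs, so their values stand side by side and are not independent. Without normalization beyond the library total, the median of all genes moved by -0.13 for the strain difference in nHP, where the calls split into 419 higher and 1236 lower instead of 706 and 612. It moved by 0.12 for HP against nHP in the mutation strain (2106 and 1051 instead of 1557 and 1486) and by 0.15 for the interaction (1321 and 576 instead of 904 and 899).

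To compare genes with one another, the deposited RPKM values, which divide by gene length, were used. IZH2 led with 468 ± 19.5 RPKM in the mutation strain HP (SD, n = 2 in this and the other groups), 512 ± 95.5 in the control strain HP and 576 ± 4.44 in the mutation strain nHP. ZRT1 ranked seventh in the mutation strain HP with 119.8 ± 16.0 RPKM, where it overlapped ZRT3, and sixth in the control strain HP with 125.5 ± 15.8 RPKM. It was second in the mutation strain nHP with 360.2 ± 2.66 RPKM. In the control strain nHP, ZRT1 stood first with 1169 ± 130 RPKM, followed by IZH2 with 555 ± 23.7, FET4 with 298 ± 4.26 and IZH1 with 283 ± 3.41. ZPS1 was last in the control strain HP with 24.3 ± 2.50 RPKM and in the mutation strain nHP with 23.8 ± 0.65, where it overlapped ZAP1. In the control strain nHP it reached 183 ± 56.5 RPKM, its libraries overlapping those of ZRC1, and ZAP1 was last with 42.4 ± 0.65.

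**Figure D4:**
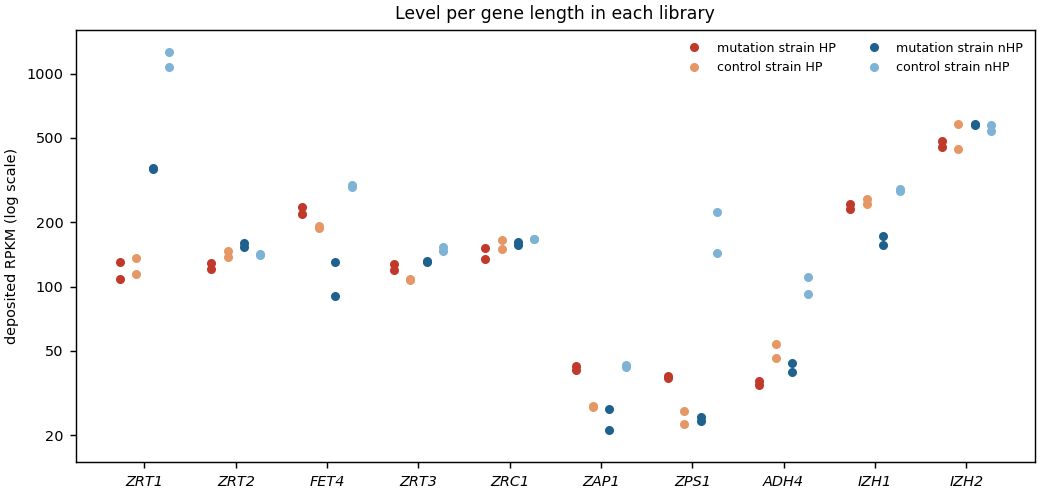
Deposited RPKM (y axis, log scale) of the 10 zinc genes, 1 dot per library, with the 4 groups side by side for each gene. In both HP groups ZRT1 lies between 108 and 137 RPKM, while in the control strain nHP it reaches 1078 and 1261 RPKM, above IZH2 at 538 and 571.

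Values were also read for 29 other genes that have been reported as Zap1 targets, all of which were tested. This list and those below were chosen with earlier results of these data known. The list gives no direction in which Zap1 would move each gene, so its calls describe single genes and do not measure Zap1 activity. For HP against nHP in the control strain, where ZRT1 and ZPS1 were much lower, 5 of the 29 were higher, 1 was lower and 23 were not called. The share called was 20.7%, beside 1.96% of all genes (1.44% higher and 0.518% lower), and the median was 0.04 against 0.00 over all genes. The called genes were MUP1, the methionine permease (log2 2.06 ± 0.12, edgeR adjusted p = 4.35e-06), SAM3, the S-adenosylmethionine permease (1.13 ± 0.10, edgeR adjusted p = 4.49e-05), TSA1, ATG41 and IZH4, and the lower one was RAD27, the flap endonuclease. MUP1 had 631 and 705 CPM in the control strain HP, against 162 and 158 CPM in the control strain nHP. TSA1, the main cytosolic peroxiredoxin, was not called without the first control strain nHP library (edgeR adjusted p = 0.36), nor without the first mutation strain HP library (edgeR adjusted p = 0.0521). The calls of ATG41, an autophagy factor, and IZH4 were lost in 4 and 7 of the 8 fits that each left out 1 library, with edgeR adjusted p up to 0.335 and 0.432, both without the second control strain nHP library. That of RAD27 was lost in 4 of the 8 fits, without either mutation strain HP library or either control strain nHP library, with edgeR adjusted p up to 0.311. The count of 6 called dropped to 3 without the first mutation strain HP library, to 2 without the first control strain nHP library, to 3 without the second, and to 2 when only the 4 libraries compared were fitted.

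For the strain difference in nHP, 4 of the 29 targets were higher in the mutation strain, 8 were lower and 17 were not called (41.4% called, beside 21.3% of all genes), with a median of -0.16 against -0.02 over all genes. HSP26, a small heat shock protein, fell by 1.57 ± 0.13 on the log2 scale (edgeR adjusted p = 1.22e-05), at 341 and 263 CPM in the mutation strain nHP, against 903 and 896 CPM in the control strain nHP. NRG2, a repressor of glucose-repressed genes, fell by 1.33 ± 0.12 (edgeR adjusted p = 1.96e-05), and GPG1, a protein of G protein signalling, fell by 1.31 ± 0.10 (edgeR adjusted p = 5.39e-06). The count of 12 called dropped to 7 without either control strain nHP library. In HP, 6 targets were higher in the mutation strain, 6 were lower and 17 were not called (41.4% called, beside 28.7% of all genes), a count of 12 that dropped to 4 without the first mutation strain HP library and to 7 without the second. TKL2, a transketolase, rose by 1.67 ± 0.30 (edgeR adjusted p = 0.00219), and UTH1, a protein of the mitochondria and cell wall, fell by 1.12 ± 0.12 (edgeR adjusted p = 8.38e-05).

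Within the mutation strain, 12 targets were higher in HP, 7 were lower and 10 were not called (65.5% called, beside 49.3% of all genes). NRG2 rose by 2.04 ± 0.12 (edgeR adjusted p = 2e-06), at 122 CPM in both mutation strain HP libraries, against 30.0 and 29.2 CPM in the mutation strain nHP libraries. MUP1 rose by 1.95 ± 0.12 (edgeR adjusted p = 2e-06) and SAM3 by 1.73 ± 0.10 (edgeR adjusted p = 2e-06). That count of 19 dropped to 12 without the second mutation strain nHP library. The interaction was called for 16 of the 29, 9 positive and 7 negative (55.2%, beside 29.2% of all genes), a count that dropped to 8 without the second mutation strain nHP library and to 10 without the first control strain nHP library.

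**Figure D5:**
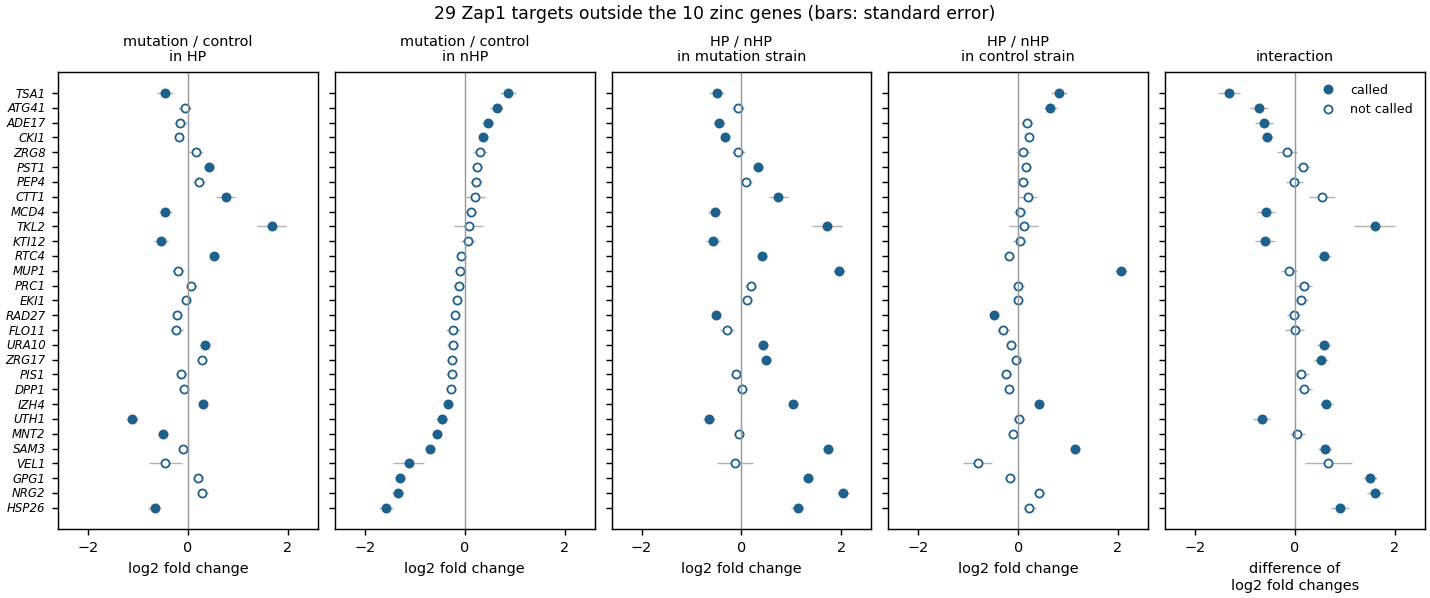
Log2 fold changes of the 29 other Zap1 targets (points) with standard errors (bars) in the 4 comparisons and the interaction, ordered by the strain difference in nHP, with filled points for genes called at an adjusted p below 0.05. For HP against nHP in the control strain most points lie near 0, and MUP1 at 2.06 and SAM3 at 1.13 lie farthest to the right.

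Besides ZRT1, 8 genes had an exact copy in their 500 bases: SDH8, PAN1, MCD4, PCD1, TEX1, RTC4, ZRG17 and MRX15. TEX1 and RTC4 have adjacent systematic names (YNL253W, YNL254C), as do ZRG17 and MRX15 (YNR039C, YNR040W). The element is a palindrome, so a copy that lies between such genes can count for both. For HP against nHP in the control strain their log2 differences ran from -0.25 for PCD1 to 0.16 for PAN1, against -3.19 for ZRT1. There 0 of the 8 were called (2.06% of all promoters tested), as for the strain difference in nHP (0 of 8, beside 22.4%). Within the mutation strain, 5 were called higher in HP and 1 lower (75%, beside 51.8%). The interaction was called for 4 with a positive and 1 with a negative value (62.5%, beside 30.9%). For the strain difference in HP, 3 of the 8 were called higher in the mutation strain and 1 lower (50% called, beside 30% of all promoters tested). PCD1, a hydrolase of oxidized nucleotides and coenzyme A, was higher by 0.86 on the log2 scale (edgeR adjusted p = 0.0015). TEX1 and RTC4 were higher by 0.63 and 0.52, and MCD4 was lower (-0.45). Of the 29 other targets, 6 (20.7%) had a copy with at most 1 mismatch, against 1.97% of all promoters.

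Of 7 other zinc transport and IZH family genes, 5 were called higher in HP than in nHP in the mutation strain, where 25.2% of all genes were called higher. All 7 log2 differences lay above 0, with a median of 0.49 against 0.02 over all genes. IZH3 rose by 1.11 ± 0.10 (edgeR adjusted p = 1.76e-05) and IZH4 by 1.04 ± 0.09 (edgeR adjusted p = 1.81e-05). PHO84, a phosphate transporter that can also carry zinc, rose by 0.89 ± 0.13 (edgeR adjusted p = 0.000327). IZH3 was also higher in the mutation strain than in the control strain in HP (0.78 ± 0.10, edgeR adjusted p = 0.000212). IZH4 and ZRG17 stand in both this list and that of the Zap1 targets.

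Of 19 enzymes that need zinc, 9 were higher and 6 lower in HP within the mutation strain (78.9% called, beside 49.3% of all genes). Between strains in HP, 6 were higher and 2 lower in the mutation strain (42.1% called, beside 28.7% of all genes). ADH2, the alcohol dehydrogenase that oxidizes ethanol, rose by 2.02 ± 0.14 in HP in the mutation strain (edgeR adjusted p = 4.73e-06), at 97.9 and 75.7 CPM in the mutation strain HP, against 21.9 and 21.0 CPM in the mutation strain nHP. MET6, the zinc-dependent methionine synthase, was higher in HP in the mutation strain (1.43 ± 0.14, edgeR adjusted p = 3.49e-05) and in the control strain (1.78 ± 0.14, edgeR adjusted p = 2.66e-05).

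By the root mean square difference of centred log2 CPM over the 8 libraries, among 1549 genes that varied enough to be ranked, the gene most like ZRT1 was CTR1, the high-affinity copper transporter, at 0.418. CTR1 had 41.1 and 39.2 CPM in the mutation strain HP, 35.0 and 39.0 CPM in the control strain HP, 129 and 117 CPM in the mutation strain nHP, and 158 and 241 CPM in the control strain nHP. As for ZRT1, the HP libraries of both strains were low and the nHP libraries high. CTR1 fell by 2.43 ± 0.17 on the log2 scale in HP against nHP in the control strain (edgeR adjusted p = 7.77e-06) and by 1.62 ± 0.17 in the mutation strain (edgeR adjusted p = 4.08e-05). Next came YPR123C at 0.472 with at most 12.01 CPM and FRE1, a reductase of iron and copper, at 0.753. YLR410W-B followed at 0.819 with 0.56 to 5.19 CPM, and ANB1, an oxygen-repressed translation factor, at 0.872. YPR123C has the systematic name next to that of CTR1 (YPR124W), and overlap with other genes was checked only for the zinc genes. The nearest zinc gene to ZRT1 was ZPS1, at 0.821.

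The genes most like ZPS1 were more distant, with FIG1, a membrane protein of mating cells, at 0.659 and ANB1 at 0.761. FIG1 had 1.87 and 2.01 CPM in the mutation strain HP, 2.78 and 2.92 CPM in the control strain HP, 0.62 and 1.11 CPM in the mutation strain nHP, and 6.92 and 7.25 CPM in the control strain nHP. YPR123C followed at 0.806, IRC7, an enzyme of cysteine breakdown, at 0.817 and YNL319W, with 0.74 to 2.38 CPM, at 0.819. ADH4 was the nearest zinc gene to ZPS1, at 0.739.

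Of the 9 iron, copper and manganese transport genes listed, CTR1 was the only one called lower in HP in the control strain, and FET3, the multicopper oxidase of iron uptake, was the only one called higher (22.2% called, beside 1.96% of all genes). FET3 rose by 0.63 ± 0.11 there (edgeR adjusted p = 0.0112), a call lost without the first control strain nHP library (edgeR adjusted p = 0.0587) and without the second (edgeR adjusted p = 0.2). In the mutation strain FET3 was higher in HP by 1.13 ± 0.11 (edgeR adjusted p = 3.49e-05).

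No zinc gene overlaps another gene of the RefSeq annotation of R64. Overlap with the 1078 IDs of the count table that this annotation does not name was not checked, and the flanking genes below are those of the same annotation. No source used here says whether the authors counted by strand, so reads from unannotated antisense transcripts cannot be told apart. Among the genes that flank them, FZF1, a transcription factor gene 195 bases beyond ZRT1, was higher in HP than in nHP in the control strain (log2 0.68 ± 0.15, edgeR adjusted p = 0.0372), opposite to ZRT1. That call was lost in 7 of the 8 fits that each left out 1 library, all but the one without the second control strain HP library, with edgeR adjusted p up to 0.345. MNT2, a mannosyltransferase gene next to ADH4 and itself on the list of Zap1 targets, was lower in the mutation strain in HP (-0.51 ± 0.10, edgeR adjusted p = 0.0044) and in nHP (-0.56 ± 0.10, edgeR adjusted p = 0.00345), as ADH4 was. Without the first mutation strain HP library the call in HP was lost (edgeR adjusted p = 0.0583). HPF1, a cell wall mannoprotein gene beside ZPS1, was higher in the mutation strain in nHP (1.498 ± 0.11, edgeR adjusted p = 4.86e-06), opposite to ZPS1. In HP it was also higher in the mutation strain (1.03 ± 0.11, edgeR adjusted p = 9.4e-05), and there ZPS1 had the same direction (0.60 ± 0.21).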

How the data were processed

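The authors deposited a table of raw read counts per gene and a table of RPKM values for 8 libraries (NEBNext Ultra kit per the labels' protocols). TopHat2 2.0.9 is named in the submitters' processing notes. No source used here gives the counter, strand setting or genome build. Of 5888 gene lengths recovered from the deposited counts and RPKM, 5573 (94.65%) equal the R64 length within 0.01 bases, including those of all 10 zinc genes, so R64 coordinates and sequences were used. Of 7126 IDs, 6048 were named from the RefSeq gene table. Another file, which tallies genes per RPKM range, was not used.

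Counts were tested with edgeR 4.0.16 (R 4.3.3): TMM normalization, filterByExpr and quasi-likelihood tests on 4 group means with 4 residual degrees of freedom, called at a Benjamini-Hochberg adjusted p below 0.05. The code was tested on simulated data. Alternatives were RLE size factors, no normalization, all genes kept, genes kept from 10 CPM upwards in 2 or more libraries, limma 3.58.1 on log2(RPKM + 1), DESeq2 1.42.0, a replicate block, only the 4 libraries compared, and leaving out each library. Copies were searched with BLAST 2.17.0, and figures drawn with matplotlib 3.10.9 in Python 3.11.15.

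The zinc genes and the gene lists were chosen with earlier results of these data known, and the 500-base promoter window after the files were seen. Genes named are the 10 zinc genes, per list and comparison up to 4 called genes with the largest change, the 5 genes nearest to ZRT1 and to ZPS1 in pattern (log2 of CPM + 0.5, SD of at least 0.3), the flanking genes and the label checks. RAD27 and the 8 genes with an exact element were named after their values were seen. Both the number of libraries, 2 per group, and the depth limit precision, and the floor of 3 counts covers counting error only.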

Additional observations from a re-analysis of the deposited data

Results flagged for a closer look

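The difference between HP and nHP was compared between strains with the interaction term of edgeR's quasi-likelihood fit, called at an adjusted p below 0.05, and each value below is the log2 difference in the mutation strain minus that in the control strain. For the zinc genes, which were picked with these values known, it was 3.42 ± 0.29 for ZPS1, the second largest in size of all 6174 genes, 1.55 ± 0.18 for FET4, 1.48 ± 0.19 for ZRT1 and 1.29 ± 0.13 for ZAP1. It was 0.62 ± 0.18 for ADH4, 0.56 ± 0.12 for IZH1 and -0.49 ± 0.12 for ZRT2.

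The genes outside the zinc genes given here are a part of those called. Of the 29 other Zap1 targets, 9 were called positive and 7 negative (55.2%, beside 29.2% of all genes). Among them it was 1.62 ± 0.16 for NRG2, 1.60 ± 0.42 for TKL2, 1.51 ± 0.14 for GPG1, 0.63 ± 0.13 for IZH4, 0.53 ± 0.14 for ZRG17 and -1.32 ± 0.22 for TSA1. For 2 further zinc transport and IZH family genes it was 1.02 ± 0.14 (IZH3) and 0.57 ± 0.18 (PHO84). Of the 19 enzymes that need zinc, 2 were called positive and 4 negative (31.6%, beside 29.2% of all genes). It was 2.02 ± 0.19 for ADH2, 0.52 ± 0.14 for GLO2, -0.65 ± 0.21 for ADH1 and -0.94 ± 0.19 for SOD1. Among genes of other metals it was 0.81 ± 0.24 for CTR1, 0.68 ± 0.15 for CCC2, 0.64 ± 0.18 for SMF3 and 0.49 ± 0.16 for FET3. Leaving out 1 library ended the call in 7 of 8 fits for ADH1, in 5 for PHO84 and GLO2, in 4 for ZRG17, SMF3 and FET3, in 3 for TKL2 and CTR1, and in 1 for CCC2 and SOD1. The second mutation strain nHP library was among those libraries for all of these except SOD1.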

How the results depend on the processing

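No result changed direction with a call under any alternative tried. Of the values of the zinc genes under the alternatives, 91 moved by at least 1 standard error of the main estimate and 699 by less. For the interaction this limit was the standard error divided by the square root of 2. Of the values of the other named genes, 132 lost their call and 1051 kept it. With only the 4 libraries compared, 1042 genes were called for the strain difference in HP instead of 1769, 72 for HP against nHP in the control strain instead of 121, and 2 other Zap1 targets there instead of 6. The labels do not say that replicate numbers mark a shared culture or batch, and the deviations of same-numbered libraries correlated at -0.04 to 0.23, so the numbers were not taken as pairs. With the replicate block, 220 genes were called for HP against nHP in the control strain. In the mutation strain 10 zinc genes instead of 8 were then called. Beside them, 1692 of the 6174 genes were called higher and 1629 lower, instead of 1557 and 1486. Leaving out 1 library at a time gave 661 to 2495 genes for the strain difference in HP, 418 to 1860 in nHP, 1773 to 3466 for HP against nHP in the mutation strain, 51 to 218 in the control strain and 724 to 2554 for the interaction. For the 29 other Zap1 targets the same ranges were 4 to 14, 7 to 15, 12 to 19, 2 to 7 and 8 to 17. Leaving out a library leaves its group with 1, which is then assumed to vary like the other groups. A filter of 10 CPM gave 1048 higher and 611 lower genes for the strain difference in HP, instead of 907 and 862. Depth limits the precision of genes with few counts, such as FIG1 (0.62 to 7.25 CPM).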
